A study of Danio rerio with 16 samples.

Results

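The change that valproic acid (VPA) made in each microRNA at 96 hours post-fertilization (hpf) was set against the change it made at 48 hpf, so that effects seen early and then gone, effects seen late, and effects seen at both times could be told from one another. All 16 samples of the series entered this 2 by 2 design. They were 4 samples of VPA-exposed and 4 of vehicle-exposed zebrafish embryos at 96 hpf, and 4 VPA-exposed and 4 vehicle-exposed at 48 hpf. All embryos were of the wild-type TL strain, exposure began at 4 hpf, the vehicle was ethanol, and no dose is given in the labels. The miRNAs described are the 135 whose probes lay well above background on at least 3 of the 4 arrays in all 4 groups, so that neither effect rested wholly on background. They are 135 of 178 zebrafish miRNAs tested and of 245 on the array. The rule lets an array of a group lie under that limit, and 6 of the 135 reached only 3 of 4 arrays in some group. The labels do not say that the 4 samples of a group came from separate clutches, and the p-values therefore reflect how far these samples vary. In total RNA of embryos, fewer cells of a type and less RNA per cell cannot be told apart.

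VPA is an anticonvulsant that inhibits histone deacetylases and disturbs the development of vertebrate embryos. A miRNA is a short RNA that is cut from a hairpin precursor and guides repression of messenger RNAs, and many miRNAs mark single tissues, such as the miR-183, miR-96 and miR-182 cluster of hair cells and photoreceptors or miR-451 and miR-144 of red blood cells. Neighbouring miRNAs are often cut from 1 primary transcript, and the opposite arm of a hairpin is written with an asterisk.

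The array reads each miRNA with short DNA probes complementary to it, so how far a value belongs to 1 miRNA depends on the probe's letters. The probes of the 8 miRNAs whose VPA effect differed between the times, and of 4 miRNAs of the same cluster or hairpin whose values are given below, are given from 5′ to 3′ as the scanner files hold them, on the array design's build danRer6 (Zv8). The files give no strand, and a probe can have 1 letter more than its mapped span. Capitals mark letters that differ from the nearest probe of another zebrafish miRNA, with both aligned at the 5′ end, where 3 or fewer differ.
miR-182, chr4:14886082-14886098: tgtgagttctaccattgc
miR-96, chr4:14885149-14885169: agcaaaaatgtgctagtgccaa
miR-183, chr4:14884996-14885012: cagtgaattctaccagtg
miR-103, chr13:15282588-15282604: tCatagccctgtacaatg
miR-429, chr23:23555518-23555534: aCggcattaccagAcagt
miR-221, with no mapped place in the files: gaAacccagCagAcaatgt
miR-210, chr25:26951443-26951456: ttagccgctgtcaca
miR-210*, chr25:26951401-26951416: caatgtgcgttagtcag
miR-451, chr5:41283987-41284007: aactcagtaatggtaacggttt
miR-144, chr5:41284130-41284148: agtacatcatctatactgta
miR-21, chr10:25808303-25808317 and chr15:16103804-16103818: gccaacaccagtctg
miR-27c, chr3:9695065-9695081 and chr3:9885268-9885284: gcagaacttaaccactg
The probe of miR-103 differs from that of miR-107 in 1 letter, that of miR-429 from miR-429b in 2 and that of miR-221 from miR-222 in 3, so these pairs may share signal. Only the nearest probe is marked, and the probe of miR-429 also differs from that of miR-200a in 3 letters. The other 5 called miRNAs have no other zebrafish probe within 3 letters by this comparison. It did not shift probes against each other, so it can miss look-alike probes that start at another letter. Shifted by 1 letter, the probes of miR-182 and miR-183 agree at most letters, so this pair may share signal too. Among others named below, the probes of miR-16a, miR-10a, miR-153b, miR-23a, miR-200a and miR-200b differ from the nearest in 1 letter. Those of miR-457b and miR-135c differ in 2 letters and that of miR-18c in 3, so all of these may share signal.

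Array brightness differed most among VPA samples. The 75th percentile of spot intensity was 1249, 1465, 3415 and 6179 on VPA arrays and 1956 to 2406 on vehicle arrays at 96 hpf, and 730, 522, 507 and 2356 on VPA arrays and 897 to 1220 on vehicle arrays at 48 hpf. Values below are log2 intensity after division by that percentile ("level"), and an effect is the VPA mean minus the vehicle mean. VPA replicates 3 and 4 at 96 hpf and VPA replicate 4 at 48 hpf were brighter than every vehicle array of their age, and some results are also given without them. The age labels were borne out by miR-430b, of a family that clears maternal messages, at -0.13 in VPA and -0.26 in vehicle embryos at 96 hpf and 3.51 in VPA and 3.35 in vehicle embryos at 48 hpf. All 96 hpf arrays lay on 1 slide and all 48 hpf arrays on another, so age and slide cannot be told apart, and array column and treatment cannot be told apart either.

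The VPA effect differed between 96 and 48 hpf for 8 of the 135 miRNAs, 4 upward and 4 downward (limma, Benjamini-Hochberg adjusted over 178). Over all 178 tested miRNAs the share called was 12.4% (3.93% higher and 8.43% lower), and among the 135 it was 5.93%. The 43 tested miRNAs outside the 135, each under the detection limit in at least 1 group, held the other 14 calls. The shares of all tested therefore include differences measured partly against background. For example, miR-212 and miR-194a, both called at 96 hpf only with the difference called, had identical VPA and vehicle means at 48 hpf. Another 26 of the 135 had an unadjusted interval of the difference that did not include 0, making 34 in all (30.3% of all tested). The effect was called at 96 hpf for 35 of the 135 (22 higher and 13 lower; 33.1% of all tested were called) and at 48 hpf for 43 (25 higher and 18 lower; 29.2% of all tested). Which direction prevailed at 48 hpf depended on the processing. With the percentile taken over probes detected on every array, 10 were called higher and 26 lower there. Quantile normalization gave 10 and 16, and median scaling 8 and 15. Without a floor the counts were 19 and 17, and with the mean of probes 27 and 23. No overlap between VPA and vehicle arrays was seen for 34 miRNAs at 96 hpf (32% of all tested) and 64 at 48 hpf (41.6% of all tested).

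Of the 60 miRNAs called at either time, 4 were transient, which here means called at 48 hpf, not at 96 hpf and with the difference called (2.81% of all tested fell in this class). These were miR-182 and miR-103, lower at 48 hpf, and miR-429 and miR-221, higher at 48 hpf. A further 4 were late, called at 96 hpf only with the difference called (8.99% of all tested): miR-210 and miR-451 were higher and miR-21 and miR-27c lower at 96 hpf. At both times 18 were called in the same direction with no call for the difference (12.4% of all tested), and 34 were called at 1 time with the difference not resolved (24.7% of all tested), 13 of them at 96 hpf only and 21 at 48 hpf only. No miRNA was called in opposite directions at the 2 times (0.562% of all tested were). With the replicate number as a block all 8 differences were called again. Under it miR-182 and miR-210 were called at both ages in opposite directions and left the transient and late classes. For miR-210 this took a call at 48 hpf, where same-numbered VPA and vehicle arrays did not consistently vary together. The remaining 75 were called in none of the 3 comparisons.

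**Figure D1:**
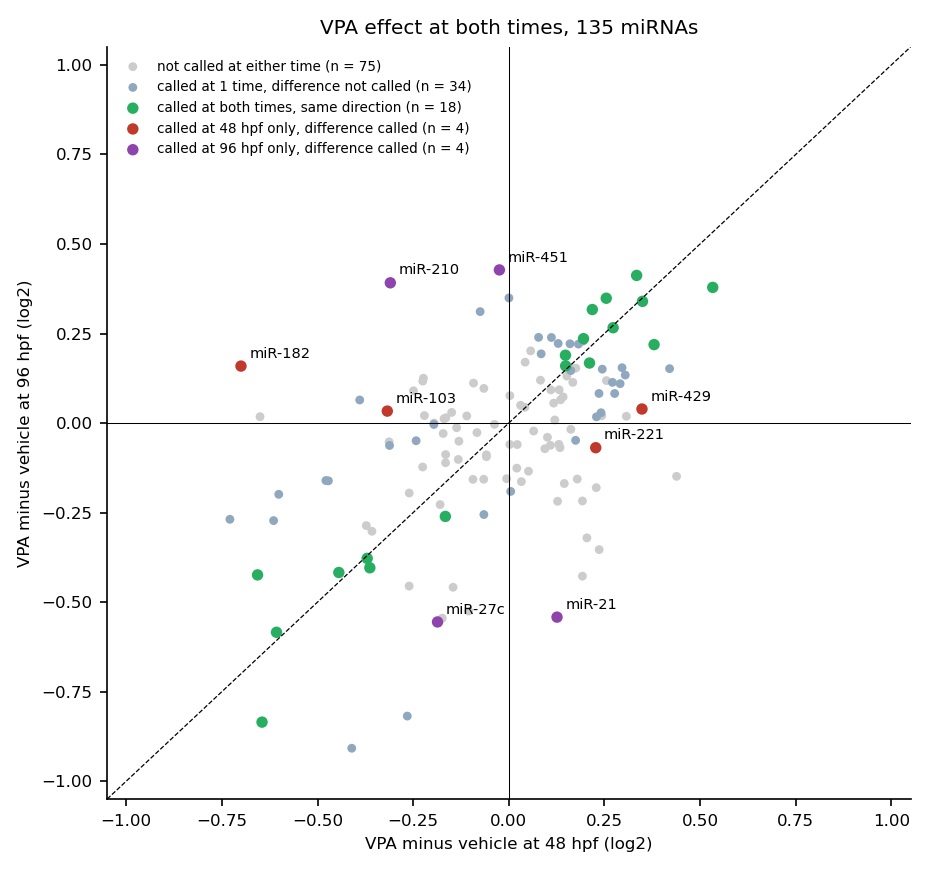
VPA effect at 96 hpf (vertical axis, log2) against the effect at 48 hpf (horizontal axis, log2) for 135 miRNAs, 1 point each, coloured by which comparisons were called; the dashed line marks equal effects. The 18 miRNAs called at both times lie in the 2 quadrants of equal sign, and among the 8 named ones miR-182 lies farthest from the dashed line, at 0.16 at 96 hpf and -0.70 at 48 hpf.

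Among the transient effects, the sensory miRNA miR-182 had the largest difference. Its level was 1.87, 1.80, 1.71 and 1.65 in VPA embryos and 1.66, 1.68, 1.57 and 1.48 in vehicle embryos at 96 hpf, and 0.19, 0.16, -0.07 and 0.0048 in VPA embryos and 0.91, 0.78, 0.72 and 0.68 in vehicle embryos at 48 hpf. All 4 VPA arrays lay below all 4 vehicle arrays at 48 hpf, while at 96 hpf the groups overlapped and VPA replicates 1, 2 and 3 lay above every vehicle array. The effect was 0.16 ± 0.07 (SE, n = 4 arrays a group; 95% interval 0.0020 to 0.32, adjusted p = 0.113) at 96 hpf and -0.70 ± 0.07 (adjusted p = 6.51e-06) at 48 hpf. The difference was 0.86 ± 0.10 (95% interval 0.64 to 1.08, adjusted p = 3.87e-05). The same-numbered VPA array lay above its vehicle array in 4 of 4 pairs at 96 hpf, and with the replicate number as a block the effect there was called (adjusted p = 0.0273). The pair count alone decides little, since miR-429 also had 4 of 4 pairs higher at 96 hpf without a call under the block (adjusted p = 0.602).

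The other members of the miR-183 cluster, 913 and 1070 bases from miR-182 on chromosome 4, had values on the same side at 48 hpf, and their differences were not called with all arrays. miR-96 had a level of 1.95, 2.15, 2.10 and 1.50 in VPA embryos and 2.06, 2.21, 2.24 and 2.25 in vehicle embryos at 96 hpf, and 0.33, 0.50, 0.32 and 0.41 in VPA embryos and 1.15, 1.18, 1.02 and 1.13 in vehicle embryos at 48 hpf. The groups were apart at 48 hpf and overlapped at 96 hpf, where VPA replicate 4 was the lowest array. The effect of miR-96 was -0.27 ± 0.11 (adjusted p = 0.0776) at 96 hpf and -0.73 ± 0.11 (adjusted p = 0.000254) at 48 hpf, a difference of 0.46 ± 0.16 (adjusted p = 0.0743). miR-183 had 0.81, 0.60, 0.14 and -0.62 in VPA embryos and 0.51, 0.06, 0.21 and 0.08 in vehicle embryos at 96 hpf, and -0.99, -0.66, -1.05 and -1.61 in VPA embryos and -0.27, -0.58, -0.44 and -0.42 in vehicle embryos at 48 hpf. Its VPA arrays spanned more than its vehicle arrays at both ages, and its difference of 0.67 ± 0.36 was not called (adjusted p = 0.227). Without VPA replicate 4 at 96 hpf both were called, at 0.60 for miR-96 (adjusted p = 0.000227) and 0.95 for miR-183 (adjusted p = 0.0129). Shifted by a letter, the probe of miR-183 resembles that of miR-182, so miR-183 and miR-182 may share signal.

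miR-103, which in vertebrates lies in introns of pantothenate kinase genes, was lower in VPA embryos at 48 hpf only. Its level was 0.22, 0.23, 0.16 and 0.49 in VPA embryos and 0.24, 0.29, 0.22 and 0.21 in vehicle embryos at 96 hpf, and -0.22, -0.31, -0.30 and -0.34 in VPA embryos and 0.07, 0.01, -0.02 and 0.05 in vehicle embryos at 48 hpf. The groups were apart at 48 hpf and overlapped at 96 hpf, where VPA replicate 4 was the highest array. The effect was 0.03 ± 0.06 (95% interval -0.10 to 0.17, adjusted p = 0.717) at 96 hpf and -0.32 ± 0.06 (adjusted p = 0.00172) at 48 hpf, a difference of 0.35 ± 0.09 (adjusted p = 0.0135). miR-107, whose probe is 1 letter away, had a difference of 0.19 ± 0.10 that was not called (adjusted p = 0.194) and an effect at 48 hpf of -0.20 (adjusted p = 0.0409).

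miR-429 of the miR-200 family, which in mammals holds back the ZEB repressors of epithelial genes, was higher in VPA embryos at 48 hpf only. Its level was 1.16, 1.24, 1.20 and 1.20 in VPA embryos and 1.15, 1.22, 1.16 and 1.10 in vehicle embryos at 96 hpf, and 1.26, 1.18, 1.21 and 1.23 in VPA embryos and 0.80, 0.999, 0.78 and 0.90 in vehicle embryos at 48 hpf. The vehicle arrays at 48 hpf stood lowest, below all 4 VPA arrays of that age, and at 96 hpf the groups overlapped. The effect was 0.04 ± 0.05 (95% interval -0.07 to 0.15, adjusted p = 0.583) at 96 hpf and 0.35 ± 0.05 (adjusted p = 0.000212) at 48 hpf, a difference of -0.31 ± 0.07 (adjusted p = 0.00969). Of its neighbours within 10 kb on chromosome 23, miR-200b had an effect of 0.03 at 96 hpf and 0.24 at 48 hpf (adjusted p = 0.0135 at 48 hpf) and miR-200a one of -0.16 and 0.03. Their differences of -0.21 ± 0.09 and -0.20 ± 0.11 were not called (adjusted p = 0.146 and 0.274). The probe of miR-200a is similar to that of miR-429, so miR-200a and miR-429 may share signal.

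miR-221, an angiogenesis miRNA of zebrafish endothelium, was also higher in VPA embryos at 48 hpf only. Its level was 1.38, 1.40, 1.36 and 1.61 in VPA embryos and 1.53, 1.47, 1.54 and 1.49 in vehicle embryos at 96 hpf, and 1.95, 1.90, 2.01 and 1.92 in VPA embryos and 1.77, 1.67, 1.70 and 1.72 in vehicle embryos at 48 hpf. At 96 hpf 3 VPA arrays were the lowest and VPA replicate 4 the highest of the 8. The effect was -0.07 ± 0.05 (95% interval -0.18 to 0.05, adjusted p = 0.374) at 96 hpf and 0.23 ± 0.05 (adjusted p = 0.00565) at 48 hpf, a difference of -0.30 ± 0.08 (adjusted p = 0.0143). miR-222, its relative with a similar probe, had a difference of -0.41 ± 0.15 that was not called with all arrays (adjusted p = 0.0909) and was called without VPA replicate 4 at 96 hpf (-0.55, adjusted p = 0.000421). Median scaling, which raised the median difference of all tested miRNAs to 0.26 against -0.04, left the differences of miR-429 and miR-221 at 0.0093 and 0.02, so these 2 fell short of that median without being below 0.

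**Figure D2:**
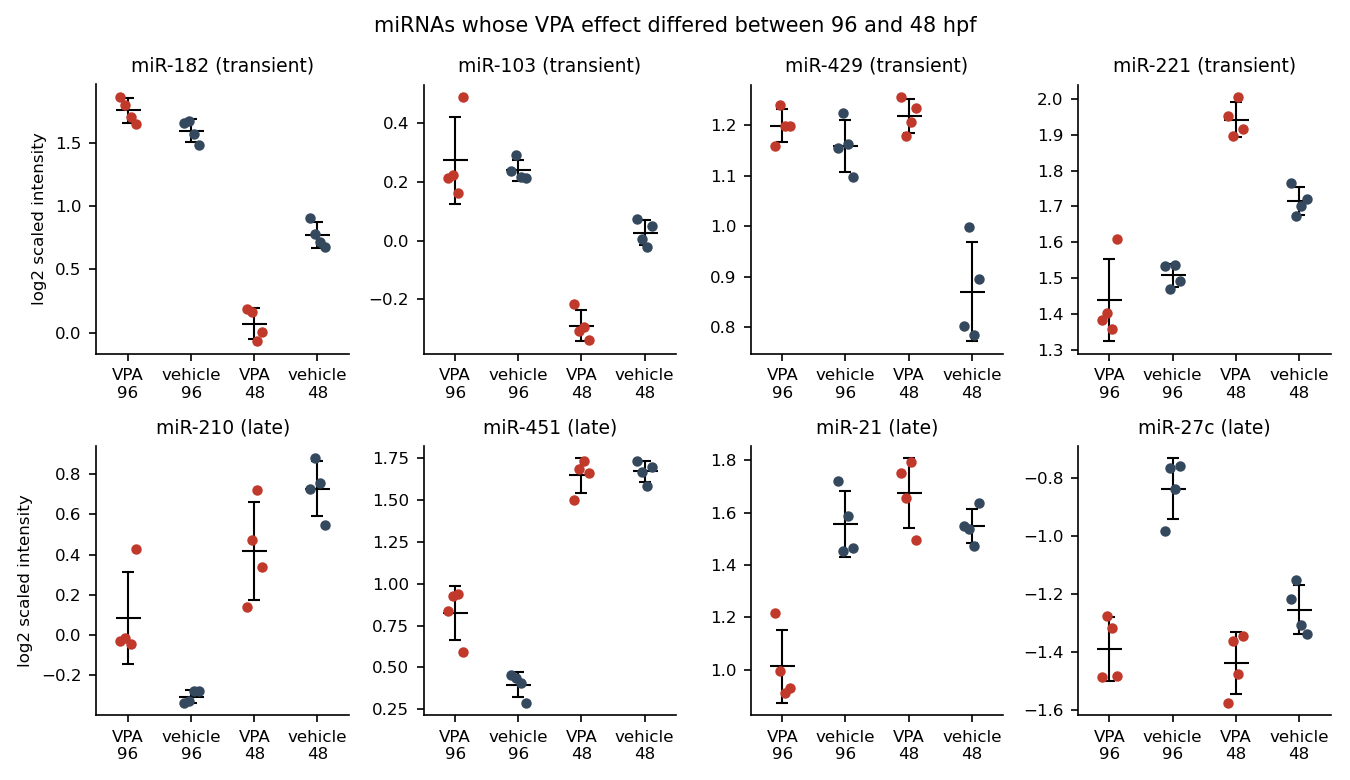
Level (log2 scaled intensity) of the 8 miRNAs with a called difference on each of the 16 arrays, VPA in red and vehicle in dark blue, with bars at the mean ± SD of 4 arrays. In the upper row the groups stand apart at 48 hpf and overlap at 96 hpf; in the lower row they stand apart at 96 hpf, and those of miR-27c stand apart narrowly at 48 hpf too.

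Among the late effects, miR-21, which is induced by injury and by blood flow over the zebrafish heart valves, was lower in VPA embryos at 96 hpf. Its level was 1.22, 0.997, 0.91 and 0.93 in VPA embryos and 1.72, 1.45, 1.59 and 1.46 in vehicle embryos at 96 hpf, and 1.75, 1.66, 1.79 and 1.50 in VPA embryos and 1.55, 1.54, 1.47 and 1.63 in vehicle embryos at 48 hpf. All VPA arrays were below all vehicle arrays at 96 hpf, and the groups overlapped at 48 hpf. The effect was -0.54 ± 0.08 (1.46-fold lower, adjusted p = 0.000134) at 96 hpf and 0.13 ± 0.08 (95% interval -0.05 to 0.30, adjusted p = 0.268) at 48 hpf. The difference was -0.67 ± 0.12 (adjusted p = 0.00103), and its call was lost with median scaling (-0.35, adjusted p = 0.0898).

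miR-451, a red blood cell miRNA whose short hairpin is cut by Ago2 rather than Dicer, was higher in VPA embryos at 96 hpf. Its level was 0.84, 0.93, 0.94 and 0.59 in VPA embryos and 0.45, 0.43, 0.41 and 0.29 in vehicle embryos at 96 hpf, and 1.50, 1.69, 1.74 and 1.66 in VPA embryos and 1.74, 1.67, 1.59 and 1.70 in vehicle embryos at 48 hpf. The VPA arrays were all above the vehicle arrays at 96 hpf, and both groups were lower there than at 48 hpf, where they overlapped. The effect was 0.43 ± 0.08 (1.34-fold higher, adjusted p = 0.000525) at 96 hpf and -0.02 ± 0.08 (95% interval -0.19 to 0.14, adjusted p = 0.856) at 48 hpf, a difference of 0.45 ± 0.11 (adjusted p = 0.00983). miR-144, which lies 123 bases away and is also made in red blood cells, had -2.79, -2.52, -2.37 and -3.85 in VPA embryos and -2.53, -2.31, -2.43 and -2.45 in vehicle embryos at 96 hpf. Its groups overlapped at both ages, and its difference of -0.19 ± 0.33 was not called (95% interval -0.90 to 0.51) and was 0.13 without VPA replicate 4 at 96 hpf.

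miR-210, which hypoxia-inducible factors switch on, was higher in VPA embryos at 96 hpf and had values on the other side at 48 hpf. Its level was -0.03, -0.01, -0.04 and 0.43 in VPA embryos and -0.34, -0.33, -0.28 and -0.28 in vehicle embryos at 96 hpf, and 0.14, 0.47, 0.72 and 0.34 in VPA embryos and 0.73, 0.88, 0.76 and 0.55 in vehicle embryos at 48 hpf. The groups were apart at 96 hpf, with VPA replicate 4 above the other 3, and overlapped at 48 hpf. The effect was 0.39 ± 0.12 (1.31-fold higher, adjusted p = 0.0221) at 96 hpf and -0.31 ± 0.12 (adjusted p = 0.0666) at 48 hpf, and the difference was 0.70 ± 0.17 (adjusted p = 0.0105). Without VPA replicate 4 at 96 hpf the difference was 0.59 (adjusted p = 0.00549), and with the replicate block the effect at 48 hpf was called as lower (adjusted p = 0.0493). Residuals of same-numbered arrays correlated by only -0.18 to 0.32 at 48 hpf, so that call rests on a pairing not seen there. The opposite arm miR-210* was higher at 96 hpf (0.31 ± 0.10, adjusted p = 0.0259), with an effect of -0.07 ± 0.10 at 48 hpf and a difference of 0.39 ± 0.14 that was not called (adjusted p = 0.0909); its other probe gave -0.02.

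miR-27c, of the miR-23, miR-27 and miR-24 clusters, was lower in VPA embryos at 96 hpf. Its level was -1.49, -1.27, -1.32 and -1.48 in VPA embryos and -0.98, -0.76, -0.84 and -0.76 in vehicle embryos at 96 hpf, and -1.58, -1.36, -1.48 and -1.35 in VPA embryos and -1.22, -1.15, -1.31 and -1.34 in vehicle embryos at 48 hpf. The groups were apart at 96 hpf, and at 48 hpf all VPA arrays again lay below all vehicle arrays, by a narrow margin. The effect was -0.56 ± 0.07 (1.47-fold lower, adjusted p = 4.17e-05) at 96 hpf and -0.19 ± 0.07 (adjusted p = 0.0668) at 48 hpf. The difference of -0.37 ± 0.10 passed by little (adjusted p = 0.0238), and it was lost without any 1 of 7 arrays: VPA replicate 1 or vehicle replicate 2 or 4 at 96 hpf, and VPA replicate 2 or 4 or vehicle replicate 3 or 4 at 48 hpf (adjusted p = 0.0539 to 0.0606). With median scaling it was -0.05 (adjusted p = 0.723) and with quantile normalization -0.28 (adjusted p = 0.123). Its cluster neighbours miR-23a and miR-24, each also made from other places on the genome, had differences of -0.08 ± 0.09 and -0.09 ± 0.08 that were not called.

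Normexp background correction kept the call for miR-182 and miR-210. It ended it for miR-451 (0.67, adjusted p = 0.141), miR-103 (0.27, adjusted p = 0.174), miR-21 (-0.38, adjusted p = 0.174), miR-27c (-0.71, adjusted p = 0.162), miR-429 (-0.07) and miR-221 (-0.0069). Quantile normalization also ended the calls of miR-429 (-0.18, adjusted p = 0.122) and miR-221 (-0.15, adjusted p = 0.320).

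Each of the 8 called miRNAs had another probe on the array. All of these gave a difference of the same sign as the brightest probe, at 0.25 to 0.81 in size. Over the 135 miRNAs, 119 had every other probe on the same side. Among pairs of members cut from 1 hairpin, 6 of 10 had differences of the same sign, and among pairs within 10 kb on the genome 51 of 77 did. The pairs within 10 kb include arms of 1 hairpin, and the share over pairs that are not neighbours was not counted.

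Precision set what could be resolved. The SE of the difference had a median of 0.12 over the 135 miRNAs and ran from 0.06 to 0.36, and the smallest called difference was 0.30 in size. No difference reached 1 in size, which would be a 2-fold ratio between the VPA-to-vehicle ratios of the 2 ages, and 9 reached 0.5. For 85 of the 135 the 95% interval lay within 0.5 of 0 (58.4% of all tested), and for 30 it lay within 0.3 (19.7% of all tested). The median difference was -0.02, with 62 positive and 73 negative. Effects at the 2 ages had the same sign for 92 of the 135 (68.1%), with a correlation across miRNAs of r = 0.49 (Spearman's rho 0.48, n = 135), a description only, since miRNAs on 1 array share its scaling and are not independent.

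The 18 miRNAs called in the same direction at both times made up 51.4% of those called at 96 hpf and 41.9% of those called at 48 hpf. There were 11 higher (8.15% of members, against 6.74% of all tested) and 7 lower (5.19% of members, against 5.62% of all tested). For 15 of the 18 the interval of the difference lay within 0.5 of 0 (9.55% of all tested were called at both times and bounded so) and for 11 within 0.3 (6.18%), so for the other 3 a larger difference was not bounded. miR-192 of gut and liver had a level of 0.98, 0.93, 0.87 and 0.37 in VPA embryos and 1.55, 1.73, 1.68 and 1.52 in vehicle embryos at 96 hpf, and -2.68, -2.58, -2.72 and -2.81 in VPA embryos and -1.96, -2.21, -2.14 and -1.89 in vehicle embryos at 48 hpf. The groups were apart at both ages, by an effect of -0.84 ± 0.12 (adjusted p = 6.01e-05) at 96 hpf and -0.65 ± 0.12 (adjusted p = 0.000858) at 48 hpf. Its difference was -0.19 ± 0.16 (95% interval -0.54 to 0.16). At 48 hpf only 3 of its 4 VPA arrays were above background, and with normexp background correction the effect there was 0.14. Under normexp 0 miRNAs were called at both times.

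The brain miRNA miR-129* was lower by a similar amount at both ages, with an effect of -0.58 ± 0.16 at 96 hpf and -0.61 ± 0.16 at 48 hpf. Its difference was 0.02 ± 0.23 (95% interval -0.47 to 0.52). miR-135c, also of brain, had an effect of -0.42 ± 0.14 at 96 hpf and -0.66 ± 0.14 at 48 hpf, and its difference of 0.23 ± 0.19 was called without VPA replicate 4 at 96 hpf (0.42, adjusted p = 0.00299). Without that array the effect of miR-135c at 96 hpf was -0.23 (adjusted p = 0.0131), and its call was lost without vehicle replicate 3 (adjusted p = 0.0817) or 4 (adjusted p = 0.0569) at 96 hpf. miR-7a, of neurons and endocrine pancreas, had -0.42 ± 0.12 at 96 hpf and -0.44 ± 0.12 at 48 hpf, and without VPA replicate 4 at 96 hpf the first of these was -0.25 (adjusted p = 0.00706). The effects of miR-34, a p53 target in mammals, were -0.40 ± 0.06 at 96 hpf and -0.36 ± 0.06 at 48 hpf, and those of miR-139 were -0.38 ± 0.08 and -0.37 ± 0.08. For miR-34 the interval of the difference, -0.23 to 0.14, was narrow enough to keep it under 0.3 in size.

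Among the 11 miRNAs higher at both ages, 4 belonged to the miR-15/16 family, which restrains the cell cycle in mammals. The list of this family holds 7 of the 135 miRNAs. The probes of miR-16a and miR-457b are similar to that of miR-16b, so these family members may share signal. miR-16a had a level of -1.46, -1.65, -1.57 and -1.45 in VPA embryos and -1.87, -2.07, -1.90 and -1.81 in vehicle embryos at 96 hpf, and -0.76, -0.68, -0.92 and -0.49 in VPA embryos and -1.25, -1.20, -1.23 and -1.30 in vehicle embryos at 48 hpf. Every VPA array lay above every vehicle array at both ages, with an effect of 0.38 ± 0.08 at 96 hpf and 0.53 ± 0.08 at 48 hpf. Its difference of -0.15 ± 0.12 was not called (adjusted p = 0.398). miR-457b had 0.41 ± 0.05 at 96 hpf and 0.33 ± 0.05 at 48 hpf, with a difference of 0.08 ± 0.07. miR-18c of the miR-17/92 family had 0.34 ± 0.07 at 96 hpf and 0.35 ± 0.07 at 48 hpf, and miR-10a, encoded beside Hox genes, 0.27 ± 0.06 at both. The intervals of the difference of miR-457b, miR-18c and miR-10a lay within 0.3 of 0.

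**Figure D3:**
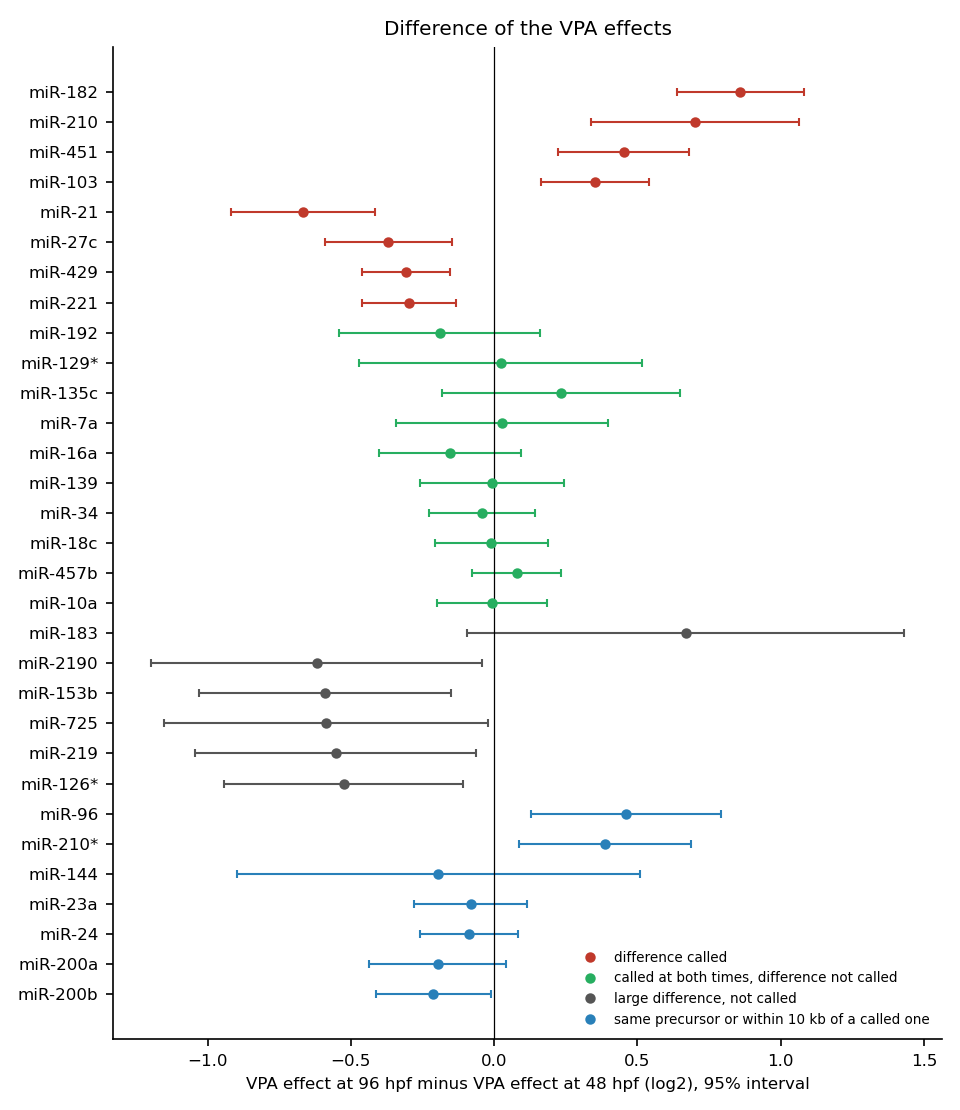
Difference of the VPA effects (effect at 96 hpf minus effect at 48 hpf, log2) with its 95% interval for the 31 miRNAs named here, coloured by why each is named. Intervals of the 8 called miRNAs lie away from 0, those of the miRNAs called at both times include 0, and miR-183 and miR-144 have the widest, from -0.10 to 1.43 and from -0.90 to 0.51.

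The largest differences that were not called came with wide spreads, which follows from choosing large differences that missed the threshold. miR-2190 had a difference of -0.62 ± 0.27 (adjusted p = 0.144), miR-725 one of -0.59 ± 0.27 (adjusted p = 0.150) and miR-219, which promotes myelination, one of -0.55 ± 0.23 (adjusted p = 0.123). Without all 3 bright arrays they were -0.31, -0.41 and -0.47, that of miR-219 called (adjusted p = 0.0366), and without VPA replicate 4 at 96 hpf alone miR-219 had -0.35 (adjusted p = 0.0888). That of miR-2190 was -0.80 and called (adjusted p = 0.0319) without VPA replicate 1 at 96 hpf, and -0.40 without VPA replicate 3. The other probe of miR-219 gave a difference of -0.00078, while those of miR-2190 and miR-725 gave -0.42 and -0.54. The brain miRNA miR-153b had -0.59 ± 0.21 (adjusted p = 0.0785), and miR-126*, from an intron of the endothelial gene egfl7, had -0.52 ± 0.20 (adjusted p = 0.0909). For miR-153b and miR-126* VPA replicate 4 at 96 hpf was the lowest array, and without it both were called, at -0.38 (adjusted p = 0.00269) and -0.35 (adjusted p = 0.0370). At the edge of the detection rule, 6 of the 135 reached only 3 of 4 arrays in some group, among them miR-192, with differences from -0.50 to 0.08. Another 5 miRNAs missed it with 2 arrays in 1 group, among them let-7b and the liver miRNA miR-122, with differences from -0.13 to 0.36. None of these 11 was called for the difference.

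By tissue and family list, several groups had differences mostly of 1 sign while few members were called. Over all tested, 3.93% were called higher and 8.43% lower for the difference. Among the 135, 62 differences were positive and 73 negative, and the signs over all tested were not counted. Many list members share a hairpin, a cluster or similar probes, so a count of signs is not one of separate readings. In the sensory cluster 3 of 3 had positive differences (median 0.67, against -0.04 over all tested) and 1 was called. The muscle list had 7 of 7 negative (median -0.17) and 0 called, and the epithelium list 9 of 10 negative (median -0.17) and 1 called, but under median scaling 6 of 7 and 10 of 10 were positive, with normexp 3 of 7 and 5 of 10, and in the unscaled value table all of both. The 4 endothelial miRNAs had negative differences (median -0.35) with 1 called. Of the 4, 2 were positive under median scaling, 1 with normexp background correction and all 4 unscaled. They are both arms of the miR-126 hairpin, and miR-221 and miR-222 with similar probes, so they are not 4 separate readings. All 5 let-7 miRNAs, which mark later development, had positive differences (median 0.34) with 0 called, and with normexp 3 of 5 were negative. In the neuronal list 11 of 15 were positive (median 0.06; 6 of 15 with normexp), and the effect was called lower for 4 of 15 at 96 hpf (18.5% of all tested) and 6 of 15 at 48 hpf (12.9% of all tested), with 0 called higher at either age. The difference was called for 0 of these 15. The miR-15/16 list had 0 of 7 called for the difference. Its effect was called higher for 6 of 7 at 96 hpf (14.6% of all tested) and 5 of 7 at 48 hpf (16.3% of all tested). Similar probes in this family may share signal, so these may not be separate readings.

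**Figure D4:**
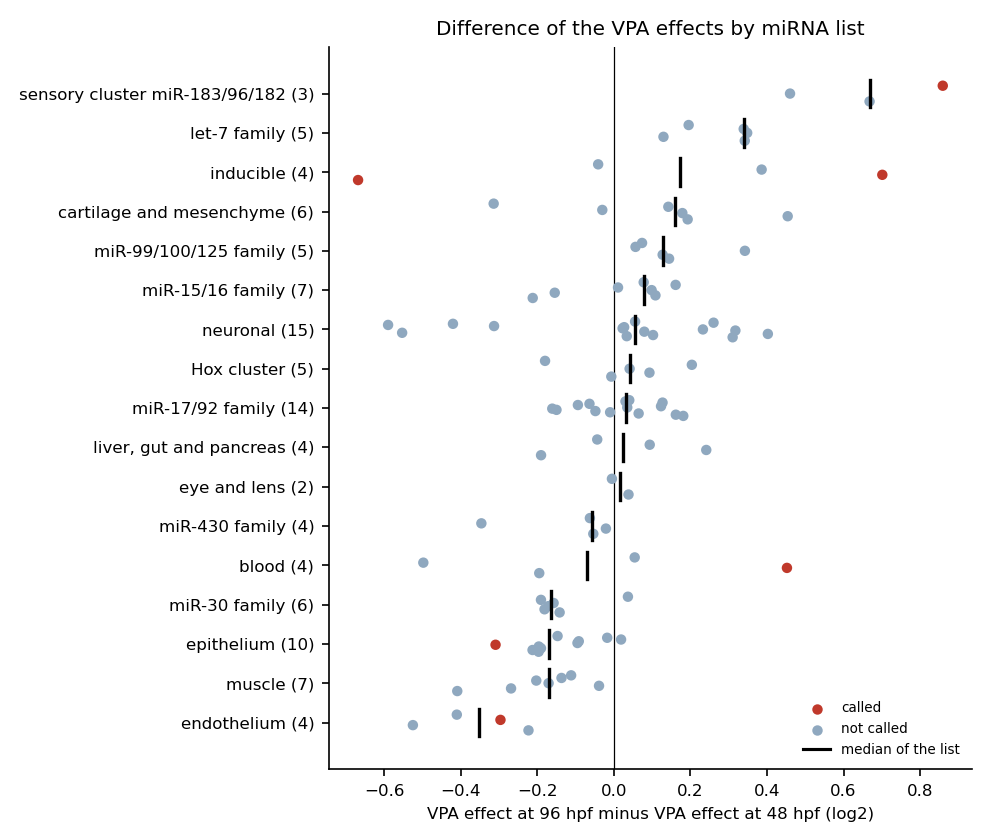
Difference of the VPA effects (log2) of each member of 17 lists, 1 point per miRNA, red where called, with a bar at the median of the list and the number of members in brackets. Medians run from 0.67 for the sensory cluster to -0.35 for endothelium, and 6 red points stand for 6 of the 8 called miRNAs, since miR-103 and miR-27c are in no list.

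The number of calls depended on 1 array. Without VPA replicate 4 at 96 hpf, 25 of the 135 were called for the difference (15 higher and 10 lower; 24.2% of all tested), including all 8, with a median SE of 0.09 in place of 0.12. Without all 3 bright VPA arrays 30 were called (15 higher and 15 lower; 28.1% of all tested), again including the 8, and 24 were called in both fits. In the neuronal list 7 of 15 were called higher and 1 lower without VPA replicate 4 at 96 hpf, where 0 were called on all arrays. These miRNAs were picked out after their values were seen. They included the neuronal miR-124, at 0.37 (adjusted p = 0.00811) against 0.31 (adjusted p = 0.0759) on all arrays, and miR-9, which had saturated spots on 3 arrays. In the endothelium list 3 of 4 were called lower, and in the sensory cluster 3 of 3 higher, both also without all 3 bright arrays. That second fit also lacks VPA replicate 4 at 96 hpf, so it is no separate check. Over 32 alternatives miR-96 was called in 7, miR-183 in 5, and miR-126* and miR-222 in 4 each. Members of both lists share a hairpin or cluster or have similar probes. For the fits without bright arrays the share of all tested miRNAs was counted only over both directions together, at 24.2% and 28.1%. The list counts by direction therefore have no share of their own direction beside them. With saturated spots left out 8 miRNAs were called, and with array brightness as a covariate 19. The share over all tested was not counted for either of these.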

How the data were processed

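The authors hybridized total RNA of 16 samples to 1-colour (Cy3) Agilent miRNA arrays on 2 slides. The deposited intensity values (processed signal) were background-subtracted by Agilent Feature Extraction 9.5.3.1 per the file headers (9.5 in the submitters' processing notes) and not scaled between arrays. The deposited value table held this intensity to within 1% for 100% of its entries. Flags for spots above background, saturated or outlying were used as deposited. Probe positions are on danRer6 per the file headers.

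Without control and outlier spots, each signal was scaled by the 75th percentile of the non-control spots of its array, floored at 0.0682 (-3.87 on the log2 scale) and log2-transformed. Spots of a probe were averaged, and the brightest probe stood for its miRNA. A miRNA entered the tests with 3 or more of 4 arrays above background in any group. Group means were fitted with limma 3.58.1 (lmFit, eBayes; R 4.3.3, data.table version 1.17.8) on all 16 arrays, two-sided, with Benjamini-Hochberg adjusted p-values over 178 miRNAs per contrast and a threshold of 0.05; each SE and interval comes from this fit. Plots came from matplotlib 3.10.9 under Python 3.11.15. The scripts were tested on simulated data.

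Named were up to 12 called differences a direction, 10 miRNAs called at both times, 6 with the largest uncalled difference, and up to 15 on the same hairpin or within 10 kb of a called one; seeds were not used. The members and the 18 lists were chosen with earlier results of these data known. Alternatives were other scalings, quantile normalization, normexp (offset 50), no floor, the scanner's gene signal, the value table, the mean of probes, other filters, a trended robust fit, array weights, brightness as a covariate, and leaving out bright arrays, saturated spots or each array in turn. Another was a replicate block. VPA and vehicle residuals of the same number correlated by 0.289, 0.282, 0.276 and 0.248 for the 96 hpf arrays. For the 48 hpf arrays they correlated by 0.0971, -0.179, 0.324 and -0.151, while VPA replicate 4 and vehicle replicate 2 correlated by 0.508. Same-numbered arrays thus varied together weakly at 96 hpf and not consistently at 48 hpf, which does not show that samples were paired. Array row follows the replicate number, so pairing and slide position cannot be told apart. The 4 arrays a group limit precision.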

Additional observations from a re-analysis of the deposited data

Results flagged for a closer look

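Among 128 groups of 4 values (31 named miRNAs and the brightness, in each of 4 groups), 10 held 1 array far from the others. By chance about 5% of the 128 would, so some of these 10 may be chance. In VPA replicate 4 at 96 hpf these were miR-210 at 0.43 (others -0.04 to -0.01), miR-34 at -0.0072 (others -0.30 to -0.25), miR-153b at -1.27 (others -0.50 to -0.36) and miR-200a at 2.02 (others 2.29 to 2.32). In VPA replicate 4 at 48 hpf they were miR-725 at 0.19 (others -0.41 to -0.32) and miR-200a at 2.11 (others 2.35 to 2.39). miR-129* stood at -1.18 in VPA replicate 2 at 48 hpf, although its VPA values spanned little. Vehicle arrays gave miR-23a at 0.16 in replicate 1 at 96 hpf and miR-210* at -1.29 in replicate 4 at 48 hpf, and vehicle replicate 3 at 48 hpf had the low 75th percentile of 897. Of these 10, 6 lay on 2 of the 3 VPA arrays that were brighter than every vehicle array of their age.

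A test of the difference itself separated the VPA effect at 96 hpf and at 48 hpf for miR-182 (0.86), miR-210 (0.70), miR-451 (0.45), miR-103 (0.35), miR-21 (-0.67), miR-27c (-0.37), miR-429 (-0.31) and miR-221 (-0.30).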

How the results depend on the processing

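Over 32 alternatives the difference was called in 31 for miR-182 and miR-210, 30 for miR-103 and miR-451, 29 for miR-21, 27 for miR-429, 26 for miR-221 and 19 for miR-27c. Scaling moved the median difference of all tested miRNAs to 0.26 (median scaling), 0.56 (unscaled value table), 0.06 (quantile) and -0.15 (normexp), against -0.04. The balance of calls, 4 higher and 4 lower as reported, also changed with the processing. Taking the percentile from probes detected on every array gave 6 and 2, and quantile normalization gave 7 and 1. The scanner's gene signal gave 7 and 2, and median scaling 42 and 0. This balance, counted over the 135, did not always follow the median of all tested. Normexp gave 2 higher and 0 lower, with a lower median over all tested but a higher one over the 135 (0.06 against -0.02). The unscaled table, with the highest median, gave 0 calls. The causes were not tested.

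The counts below are of the 135 miRNAs, and for most alternatives the share over all tested was not counted. They therefore do not show whether the 135 changed more than the whole table did. Median scaling gave 42 calls for the difference, 72 for the effect at 96 hpf and 23 at 48 hpf, 25 late, 6 at both times and 36 bounded differences. Normexp gave 2 for the difference, 0 at 96 hpf (19 at an unadjusted p under 0.05) and 4 at 48 hpf, 1 transient, 0 late, 0 at both times and 22 bounded. The unscaled table gave 0 by limma in every count (at an unadjusted p under 0.05, 1 for the difference, 0 at 96 hpf and 7 at 48 hpf) and 0 bounded. Quantile normalization gave 26 calls at 48 hpf and 1 transient, the percentile over detected probes 2 late, and the mean of probes 7 transient. Array weights gave 34 for the difference, 69 at 48 hpf, 13 transient and 28 at both times. Brightness as a covariate gave 19 and 13 transient. Without the 3 bright arrays there were 30, with 66 at 48 hpf, 12 transient and 8 late. The 96 hpf arrays alone gave 21 calls at 96 hpf, and a limit of 0.3 left 30 bounded differences against 85.

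Leaving out 1 array gave 7 to 25 calls for the difference, 24 to 44 at 96 hpf, 31 to 71 at 48 hpf, 4 to 13 transient, 2 to 6 late, 12 to 24 at both times, 77 to 101 bounded, and a median difference of -0.04 to -0.0058. The highest count for the difference and the 71 and 13 came without VPA replicate 4 at 96 hpf. With the replicate block there were 8 calls for the difference, 35 at 96 hpf and 46 at 48 hpf, 3 transient, 3 late, 18 at both times and 88 bounded.

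Signs turned in the unscaled table for the difference of miR-27c (0.30), miR-429 (0.36), miR-221 (0.37), miR-2190 (0.040), miR-153b (0.078), miR-725 (0.080), miR-219 (0.11), miR-126* (0.14), miR-144 (0.43), miR-23a (0.59), miR-24 (0.58), miR-200a (0.47) and miR-200b (0.45), and for the effect at 48 hpf of miR-429 (-0.089), miR-221 (-0.21), miR-18c (-0.087), miR-457b (-0.10) and miR-10a (-0.16). Median scaling turned the difference of miR-429 (0.0093), miR-221 (0.022), miR-144 (0.10), miR-23a (0.24), miR-24 (0.23), miR-200a (0.12) and miR-200b (0.11). Normexp turned the difference of miR-210* (-0.022), miR-200a (0.11) and miR-200b (0.10), and the effect at 48 hpf of miR-221 (-0.0097), miR-192 (0.14) and miR-139 (0.013). The difference of miR-144 was 0.073 with quantile normalization, 0.091 with array weights, 0.019 without the bright arrays and -0.36 to 0.13 when 1 array was left out, positive only without VPA replicate 4 at 96 hpf. Probes near background and saturated spots on bright arrays may limit what these arrays resolve, but this was not tested as a cause. With saturated spots left out, all 8 reported differences were called again.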
